A study of Mus musculus with 8 samples.

Results

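The B cell surface receptor genes are *Ms4a1*, *Cd22*, *Cd37*, *Cd72*, *Fcrla*, *Tnfrsf13c*, *Cr2* and *Fcer2a*, 8 genes that were chosen by name. An ATAC peak was assigned to a gene of this list if that was the closest gene of GENCODE vM21 and the peak center was in the gene, at most 20 kb before its start or at most 10 kb past its end. This rule gave 18 of the 87642 peaks of MPP3 cells and 19 of the 86952 peaks of MPP4 cells, and each of the 8 genes had at least 1 peak in both cell types. The rule itself uses position and no measured level.

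Accessibility was measured by bulk ATAC-seq, in which a transposase inserts adapters into open DNA, in 5000 sorted cells per library. Each cell type had 2 *Ebf1* KO and 2 *Ebf1* WT libraries, which makes 8 libraries. All mice were C57BL/6 and 8 or 9 weeks old, and bone marrow came from pooled leg and hip bones. By the labels, *Ebf1* KO mice were Ebf1fl/fl Tie2Cre +/cre and *Ebf1* WT mice were Ebf1fl/fl Tie2Cre +/+, so that floxed *Ebf1* alleles were common to both groups, whereas the description of the series gives the *Ebf1* WT mice wild-type *Ebf1* together with Tie2Cre. Because Cre is under the Tie2 promoter, the deletion is not limited to blood cells and also takes place in the lining of blood vessels. The MPP3 mice of both genotypes were female, with the *Ebf1* WT mice 8 weeks and the *Ebf1* KO mice 8 and 9 weeks old. The *Ebf1* KO MPP4 mice were female and 8 weeks old, and the *Ebf1* WT MPP4 mice were 1 female and 1 male of 9 weeks. The level of each peak is the authors' mean over the 4 libraries of a cell type, with *Ebf1* KO and *Ebf1* WT libraries pooled. The values therefore describe neither genotype alone, and the accessibility of *Ebf1* KO and *Ebf1* WT cells was not compared here. A site open in only part of the libraries has a mean below its level where it is open. Without a value per library there is no spread between replicates and no test, and the exact depth of each library is unknown.

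Multipotent progenitors of the bone marrow have not yet chosen a lineage, but MPP3 cells lean toward myeloid and MPP4 cells toward lymphoid fates. The receptors studied here belong to the mature B cell, where they tune the signal of the B cell receptor, sense complement and antibody, or receive survival signals. EBF1 is a transcription factor that specifies the B cell lineage, binds a palindromic DNA sequence and can open chromatin ahead of gene expression.

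Genes that define the sorted cells were looked at first. Levels are given as log2 CPM per kb of peak, which is the authors' mean log2 CPM (counts scaled to the library size) corrected for peak length. At its transcript start *Kit*, the stem cell factor receptor, had 6.57 in MPP3 and 6.76 in MPP4 cells, and *Flt3*, the receptor used to sort MPP4 cells, had 6.99 and 7.55. The paper defines MPP3 cells as Flt3-negative, yet their *Flt3* start lay at the 97.7th percentile of all MPP3 peaks. *Cd48*, which both sorts required, was much lower at 3.86 and 4.05. *Slamf1*, which encodes the CD150 that both sorts avoided, had a start peak of similar level, 3.71 and 3.88. The start levels of *Cd48* and *Slamf1* thus did not follow the sort, and neither did the *Flt3* start of MPP3 cells by the paper's definition. *Ly6a*, which encodes the Sca-1 of the sort, had no start peak in MPP3 cells and 3.82 in MPP4 cells. Among the genes of the depleted lineage antigens, *Cd3e* and *Ly6g* had no start peak in either cell type, whereas *Itgam* had 4.57 and 4.89. *Ptprc*, which is also among the surface genes of stem and progenitor cells used below, had 4.84 and 5.36. *Cd79a*, which encodes a subunit of the B cell receptor, had a start peak only in MPP3 cells, at 4.59.

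The peaks of the B cell surface receptor genes reached from below the lower to above the upper quartile of all peaks. Their median was 4.46 log2 CPM per kb in MPP3 cells, beside 4.11 for all MPP3 peaks, and 4.33 in MPP4 cells, beside 4.15 for all MPP4 peaks. The MPP4 median fell below that of all peaks without *Cd72*, at 4.03, and in log2 CPM not corrected for length, at 2.32 beside 2.35. In MPP3 cells it stayed above in both cases, at 4.39 without *Cd72* and at 2.78 beside 2.24 in log2 CPM. The quartiles of all peaks were 3.61 and 4.94 in MPP3 and 3.53 and 5.07 in MPP4 cells. In MPP3 cells 12 of the 18 peaks lay above the median of all peaks, and in MPP4 cells 10 of the 19 did. The lowest and highest levels were 3.47 and 5.99 in MPP3 cells and 3.16 and 6.22 in MPP4 cells. In bulk data, more cells with an open site and more openness per cell cannot be told apart. The tables of both cell types were normalized separately, so levels of MPP3 and MPP4 cells are set side by side here without a test. The receptor genes had 2.25 peaks per gene in MPP3 and 2.38 in MPP4 cells, while protein-coding genes of the autosomes had 2.83 and 2.82 on average, genes with no peak included.

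Transcript starts were looked at next. A peak with its center within 1 kb of a transcript start was found at 7 of the 8 genes in MPP3 cells and at 5 of the 8 in MPP4 cells, beside 67.5% and 67.3% of the 20780 protein-coding genes. In MPP4 cells 4 genes remained when the peak had to overlap the start or when only protein-coding transcripts were used. *Fcer2a* had no start peak in either cell type, and *Ms4a1* and *Fcrla* had one only in MPP3 cells. The median level of these starts was 4.86 in MPP3 and 5.52 in MPP4 cells, beside 5.60 and 5.53 at the starts of all protein-coding genes. Only the *Cd72* start exceeded the general median in MPP3 cells, whereas *Cd72* and *Cd37* did in MPP4 cells. The *Cd37* start itself had 5.54 in both cell types, so only the general median differed there. The order of levels per kb from high to low in MPP3 cells was *Cd72*, *Cd37*, *Tnfrsf13c*, *Cr2*, *Cd22*, *Ms4a1* and *Fcrla*. In MPP4 cells *Cr2* came before *Tnfrsf13c*, and the genes from *Cd72* to *Cd22* otherwise kept that order. With 1 value per peak, neighbours in the order cannot be told apart by a spread.

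*Cd72* and *Cd22* encode inhibitory receptors that dampen B cell receptor signals through phosphatases. *Cd72*, a lectin-type receptor that binds semaphorin 4D, had the highest levels per kb of the 8 genes and 5 peaks in each cell type. In log2 CPM, not corrected for length, the long *Cd37* start peak was higher than every *Cd72* peak, with 5.35 in MPP3 and 5.33 in MPP4 cells. The *Cd72* start peak (chr4:43454491-43454779 in MPP3, mm10, gene on the minus strand) had 5.99 in MPP3 and 6.14 in MPP4 cells, the 90.8th and 91.8th percentile of all peaks. Further open sites lay upstream of this start. The peak with its center 2060 bp upstream had 5.61 in MPP3 and 6.22 in MPP4 cells. A neighbouring peak 2700 bp upstream had 5.39 in MPP3 and 5.96 in MPP4 cells. Both were below the start in MPP3 cells, while they lay on either side of it in MPP4 cells. A peak 11502 bp upstream was weaker, with 4.20 in MPP3 and 4.84 in MPP4 cells. Besides these shared sites, each cell type had 1 more. In MPP3 cells a coding exon 371 bp into the gene had a separate peak of 5.50, at a gap of 109 bp from the MPP4 start peak. In MPP4 cells a peak of 3.81 lay 15900 bp upstream.

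*Cd22*, a lectin that binds sialic acid and recruits the phosphatase SHP-1, was less accessible. In MPP3 cells an intronic peak at chr7:30878900-30879202, 23 bp from the start of an annotated transcript, had 3.63, and no MPP4 peak overlapped it. A peak in a coding exon about 7 kb into the gene was shared, with 3.97 in MPP3 and 3.62 in MPP4 cells. This exonic peak counts as a start peak only through an annotated transcript that begins inside the gene, 148 bp from its center in MPP3 cells, and it is the only *Cd22* peak of MPP4 cells. With the intronic peak in its place, *Cd22* would follow *Ms4a1* in the order of MPP3 starts.

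*Cr2*, *Fcer2a* and *Fcrla* are linked to complement and antibody. *Cr2* encodes a complement receptor that lowers the threshold of B cell activation. Its 1 peak lay at the start (chr1:195176545-195176944 in MPP3), 4.86 in MPP3 and 5.52 in MPP4 cells. Over the 39906 bp of this gene no other peak was assigned to it in either cell type. *Fcer2a* encodes CD23, the low-affinity receptor for IgE. It had an intronic peak 6448 bp into the gene (chr8:3687611-3687842 in MPP3), with 3.82 in MPP3 and 3.93 in MPP4 cells. A further intronic peak of 3.51 was found in MPP4 cells only. *Fcer2a* was thus open inside the gene without a peak at its start.

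*Fcrla* encodes an Fc receptor-like protein that stays inside B cells and binds immunoglobulin there. Its most accessible site in MPP3 cells was not the start but a peak 1074 bp upstream (chr1:170928461-170928853), with 4.40. The overlapping MPP4 peak had 3.41 and was shorter, at 256 bp in place of 393 bp. An intronic peak was also lower in MPP4 cells, with 3.92 in MPP3 and 3.46 in MPP4 cells. The start peak was the weakest of all 18 MPP3 peaks, at 3.47, and had no MPP4 counterpart.

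*Ms4a1*, *Cd37* and *Tnfrsf13c* encode a channel-like membrane protein, a tetraspanin and a cytokine receptor. *Ms4a1*, the gene of CD20, had no peak in common between the cell types. In MPP3 cells its single peak covered the transcript start, at 3.74. In MPP4 cells the start had no peak, and 3 intronic peaks with centers 2486, 3118 and 4524 bp into the gene had 4.13, 3.90 and 3.16. The nearest of them lay 2198 bp from the MPP3 peak. All 4 *Ms4a1* peaks were below the median of all peaks, and the last of the MPP4 peaks was the weakest of the 19.

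*Cd37*, a tetraspanin that organizes membrane proteins of mature B cells, had the longest start peak. It covered 877 bp in MPP3 (chr7:45238667-45239543) and 862 bp in MPP4 cells, with 5.54 in both. A shorter peak near the end of the gene, in an untranslated exon, had 4.39 in MPP3 and 4.33 in MPP4 cells. *Cd37* was hence nearly the same in both cell types. *Tnfrsf13c*, the receptor for the B cell survival factor BAFF, had 3 shared peaks. The start peak (chr15:82224244-82224767 in MPP3) had 5.02 in MPP3 and 5.24 in MPP4 cells. A peak 1616 bp upstream had 4.52 in MPP3 and 4.55 in MPP4 cells. The third lay 2800 bp downstream of the gene end and had 4.86 in MPP3 and 5.47 in MPP4 cells, below the start peak in MPP3 and above it in MPP4 cells.

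MPP3 and MPP4 cells shared most of these sites. An overlap of at least 1 bp with a peak of the other cell type was found for 14 of 18 MPP3 peaks (77.8%, 95% Wilson interval 54.8 to 91%) and for 14 of 19 MPP4 peaks (73.7%, 51.2 to 88.2%). Among all peaks the shares were 75.7% and 76.7%, so the receptor genes did not stand apart. These intervals cover counting error only. The 4 MPP3 peaks without an MPP4 counterpart belonged to *Ms4a1*, *Cd22*, *Cd72* and *Fcrla*, and all of them lay within 1 kb of a transcript start. The 5 MPP4 peaks without an MPP3 counterpart were the 3 of *Ms4a1* and 1 each of *Cd72* and *Fcer2a*, and none of them lay at a transcript start. How many of all unshared peaks lie at transcript starts is not given here, so this split is a description only. The *Cd72* start was open in both cell types, as its unshared MPP3 peak lay 109 bp from the MPP4 start peak. The *Cd22* peak counts through a transcript that begins inside the gene. Except for the *Cd72* exon peak of 5.50, unshared peaks were weak. Their medians were 3.69 in MPP3 and 3.81 in MPP4 cells, beside 4.69 and 5.04 for the shared peaks. All peaks without a counterpart had medians of 3.52 and 3.45. A weak site can fall below the limit of peak calling in 1 cell type, so a missing peak does not show closed chromatin.

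At the 14 shared sites, the difference of MPP4 minus MPP3 had a median of 0.13 in log2 CPM per kb, and 10 of 14 sites were higher in MPP4 cells. Of all 66324 shared sites 48.4% were higher in MPP4 cells, with a median difference of −0.01. All 4 shared sites of *Cd72* and all 3 of *Tnfrsf13c* were higher in MPP4 cells on this scale, while both of *Fcrla* and the 1 of *Cd22* were lower. Without the correction for length, 7 of 14 sites were higher in MPP4 cells, beside 53.0% of all shared sites, and the *Tnfrsf13c* start, the *Cd37* start and the *Fcer2a* peak then had differences of −0.20, −0.02 and −0.01. The count over the 14 sites thus depended on the scale, while the signs at *Cd72*, *Cr2*, *Fcrla* and *Cd22* did not. The *Fcrla* peak upstream of the start had the most negative difference of the 14, −0.99 per kb, at the 1.08th percentile of all shared sites. In log2 CPM, not corrected for length, the same site had 3.05 in MPP3 and 1.44 in MPP4 cells. At the other end, the *Cr2* start had a difference of 0.66, at the 93.7th percentile. The *Cd72* site 11.5 kb upstream followed with 0.64, and its log2 CPM was 2.57 in MPP3 and 3.71 in MPP4 cells. Of all shared sites, the middle 90% ranged from −0.63 to 0.72.

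The sequence of the peaks was searched on both strands for the EBF1 consensus TCCCNNGGG. It was present in 8 of the 18 MPP3 peaks (44.4%, 95% Wilson interval 24.6 to 66.3%), which belonged to 6 of the 8 genes. Within 150 bp of the peak center the MPP3 share was 27.8%, close to the 26.3% of MPP4 cells. The shares of other peaks given here are over whole peaks. Of MPP3 peaks with a length within 10% of a receptor gene peak, 8.08% held the consensus on average, as did 7.46% of all MPP3 peaks. In MPP4 cells 5 of 19 peaks held it (26.3%, 11.8 to 48.8%), in 4 genes, beside 6.72% of peaks of like length and 6.49% of all peaks. The consensus was thus found in a larger share of the receptor gene peaks than of peaks in general in both cell types. The intervals treat peaks as independent, although some peaks belong to the same gene and the MPP4 sites are also among the MPP3 sites. Because the genes were chosen by name with earlier results of these data known, the difference in share was not tested. A match is a sequence and does not show that EBF1 binds there. With a further A required at the end, which makes the consensus a palindrome, 2 MPP3 peaks (11.1%) and 1 MPP4 peak (5.26%) remained, those of *Cd22* and *Tnfrsf13c*, beside 1.20% and 0.853% of peaks of like length. The 5 sites in MPP4 peaks all lay in shared peaks, at *Cd37*, *Cd72*, *Fcrla* and *Tnfrsf13c*. The other sites in MPP3 peaks were those of the *Ms4a1* start and the *Cd22* intron, where MPP4 cells had no peak, and that of the *Tnfrsf13c* start, which the shorter MPP4 peak did not reach. No match was found in the peaks of *Cr2* and *Fcer2a*.

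Sequences around the EBF1 consensus are shown for 5 of the 6 genes because these genes have different sites at different distances from their starts. In the sequences printed here, the match lay 222 bp upstream of the gene start at *Cd37*, 358 bp at *Tnfrsf13c*, 1155 bp at *Fcrla* and 2625 bp at *Cd72*. At *Cd22* it lay in an intron, 1270 bp into the gene, and a further *Tnfrsf13c* match lay downstream of the gene. All sequences are read from GRCm38 on the minus strand, the strand of all 8 genes, and the capitals mark the consensus. Where matches on both strands overlap, as in the *Cd22* and the downstream *Tnfrsf13c* site, the capitals cover both.
*Cd22* chr7:30879029-30879137: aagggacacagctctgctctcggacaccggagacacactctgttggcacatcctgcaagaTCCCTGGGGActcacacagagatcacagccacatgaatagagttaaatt
*Cd37* chr7:45239273-45239401: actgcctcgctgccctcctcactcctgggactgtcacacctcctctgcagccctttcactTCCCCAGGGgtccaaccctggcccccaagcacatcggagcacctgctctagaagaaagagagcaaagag
*Cd72* chr4:43457189-43457317: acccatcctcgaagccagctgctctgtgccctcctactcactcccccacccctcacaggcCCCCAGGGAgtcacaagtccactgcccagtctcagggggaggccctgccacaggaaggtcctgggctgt
*Fcrla* chr1:170928674-170928802: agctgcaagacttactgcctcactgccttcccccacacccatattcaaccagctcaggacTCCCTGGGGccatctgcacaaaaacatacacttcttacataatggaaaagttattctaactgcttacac
*Tnfrsf13c* chr15:82224663-82224767: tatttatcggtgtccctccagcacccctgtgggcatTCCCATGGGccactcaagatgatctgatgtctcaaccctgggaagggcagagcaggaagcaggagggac
*Tnfrsf13c* chr15:82219031-82219159: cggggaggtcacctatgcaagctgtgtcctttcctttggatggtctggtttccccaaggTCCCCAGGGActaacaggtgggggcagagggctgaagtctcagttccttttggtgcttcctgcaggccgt
The site in the *Cd37* peak near the end of the gene lies in an untranslated exon (chr7:45233792-45233802) and is not printed.

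E-boxes and the core of PU.1 sites were searched as motifs of other factors of these cells, the E proteins of the lymphoid and PU.1 of the lymphoid and myeloid lineages. An E-box, CAGGTG or CAGCTG on either strand, was present in 9 of 18 MPP3 peaks (50.0%, 29.0 to 71.0%) and 10 of 19 MPP4 peaks (52.6%, 31.7 to 72.7%), beside 40.9% and 40.8% of peaks of like length. The PU.1 core GAGGAA was also present in 9 of 18 and 10 of 19 peaks, beside 41.7% and 43.7%. Both shares have intervals that include that of peaks of like length. None of the EBF1 matches overlapped an E-box or a PU.1 core. An EBF1 match within 50 bp of an E-box was present in 4 MPP3 and 4 MPP4 peaks, both peaks of *Cd37*, the *Cd72* peak 2.7 kb upstream and the *Tnfrsf13c* peak downstream of the gene. Of peaks of like length 1.52% and 1.20% held such a pair. The *Fcer2a* peak had no EBF1 consensus but 2 PU.1 cores, and the *Ms4a1* intron peak of 4.13 had 1, in the longer form GAGGAAGT. PU.1 cores were not limited to peaks without the EBF1 consensus. The *Cd37* start peak, which had an EBF1 match, held 4 in MPP3 and 3 in MPP4 cells. The *Fcer2a* and *Ms4a1* sequences are again on the minus strand, with the PU.1 core in capitals.
*Fcer2a* chr8:3687611-3687730: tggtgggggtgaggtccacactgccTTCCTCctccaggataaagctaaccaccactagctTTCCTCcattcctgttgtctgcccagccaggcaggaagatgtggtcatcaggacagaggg
*Ms4a1* chr19:11263691-11263816: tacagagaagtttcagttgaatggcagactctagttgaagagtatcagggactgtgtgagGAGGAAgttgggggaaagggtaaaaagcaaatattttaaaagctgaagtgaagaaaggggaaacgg

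Promoter sequences of RefSeq (GRCm38.p6) around gene starts were matched for 7 of the 8 genes, all but *Ms4a1*. Of all 32851 promoters 6.56% held the EBF1 consensus, and of the 9 promoters of these genes only that of *Cd22* did. This promoter (chr7:30878979-30879278) overlaps the *Cd22* intron peak of MPP3 cells and contains the site printed above. At *Cd37*, *Cd72*, *Fcrla* and *Tnfrsf13c* the EBF1 consensus was therefore in open DNA outside the promoter window.

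Genes that work with these receptors, or mark other lineages, were set beside them without a test. Partners and signalling genes, such as *Lyn* and *Ptpn6*, had median levels of 4.38 in MPP3 and 4.41 in MPP4 cells, close to the 4.46 and 4.33 of the receptor genes. Their start peaks included the highest of the list at *Ptpn6*, the phosphatase SHP-1 that *Cd22* and *Cd72* recruit, with 6.56 and 6.37. *Tnfrsf17*, a further receptor of the BAFF family, had no start peak in either cell type. The EBF1 consensus was found in 9.52% and 12.2% of the partners' peaks, compared with 44.4% (27.8% within 150 bp of the center) and 26.3% of those of the receptor genes. Shares of the other lists are over whole peaks, so the 27.8% has no like value beside it. Myeloid surface receptors had it in 3.28% and 3.45% of peaks, with medians of 4.39 and 4.33. Surface genes of stem and progenitor cells had it in 11.6% and 7.55%, with medians of 4.41 and 4.47. B lineage transcription factors had it in 6.74% and 4%, with medians of 4.07 and 3.90. T cell surface genes had it in 0 of 21 MPP3 and 0 of 26 MPP4 peaks, which allows shares of up to 14.3% and 11.5% (3 counts of the total), with medians of 4.52 and 4.50. Housekeeping genes had it in 9.52% and 9.09%, and had higher medians of 6.25 and 5.93. By level the receptor genes were thus near the lists of other surface genes, whereas the share of their peaks with the EBF1 consensus was above that of each list. In MPP4 cells, its interval of 11.8 to 48.8% included the 12.2% of the partners.

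The windows of the receptor genes also held peaks closer to a neighbouring gene, 20 in MPP3 and 19 in MPP4 cells, which are not counted above. Downstream of *Cd72*, *Tesk1* had a peak of 7.02 in MPP3 and 6.65 in MPP4 cells and another of 5.66 and 5.95. Downstream of *Fcer2a*, a *Trappc5* peak had 6.29 in MPP3 and 5.94 in MPP4 cells. Downstream of *Cr2*, the related complement regulator gene *Cr1l* had a peak of 6.25 in MPP3 and 6.31 in MPP4 cells and another of 6.24 and 6.17. The EBF1 consensus was present in 3 of these peaks in each cell type, assigned to *Fcrlb*, *Cr1l* and *Clec4g*. At the limits of the window, the farthest peaks inside were the *Cd72* peak 15900 bp upstream in MPP4 cells and the *Tnfrsf13c* peak 2800 bp downstream of the gene end. The nearest peaks outside lay 20156 bp upstream of *Tnfrsf13c* in MPP4 cells, with 5.33, and 11164 bp downstream of *Fcer2a* in MPP4 cells, with 4.31.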

How the data were processed

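ATAC-seq libraries were made from MPP3 and MPP4 cells of *Ebf1* KO and *Ebf1* WT mice. The authors trimmed adapters (cutadapt 2.10), mapped reads to mm10, removed duplicates and long fragments (deepTools), and called peaks with MACS2 2.2.7.1 on merged replicates of each condition, so replicates do not have peak sets of their own. Peaks of both genotypes were joined within a cell type, and the authors deposited the mean log2 CPM of each peak over the 4 libraries, as edgeR 3.32.0 gives it. The remaining columns hold the authors' own comparison of *Ebf1* KO with *Ebf1* WT (fold change, F, p-value and FDR) and were not used. The labels give a target of 50 M reads per library.

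Levels were corrected by subtracting log2 of the peak length in kb. Because edgeR takes library sizes within a table, MPP3 and MPP4 levels were not tested against each other. A peak belonged to the gene whose transcript start, center or end was closest to its center, within 20 kb upstream or 10 kb downstream. Motifs were counted on both strands of the whole peak, with peaks of a length within 10% of a receptor gene peak as comparison, and shares have 95% Wilson intervals, or for a count of 0 the limit that 3 counts give. The text names all 8 genes, and in the other lists the genes that check the sort, lead the list or lack a start peak, as well as neighbours that take peaks, though not every gene under this rule is given. Some genes of the other lists and some sequences are not reported here. Members and lists were chosen with earlier results of these data known. Calculations were run in Python 3.11.15 with pandas 2.3.3, scipy 1.17.1 and pysam 0.24.0, and the motif and assignment steps were tested on simulated data.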

Additional observations from a re-analysis of the deposited data

How the results depend on the processing

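Of 54 alternative settings, 44 left the value within 1.5 times a count or within the interval of a share or median, and 10 moved it. Counting transcript bodies only gave 8 peaks in MPP3 and 9 in MPP4 cells, and counting every peak in reach, whether or not another gene was closer, gave 38 in each, both by construction. Without the division by length, the median log2 CPM was 2.78 in MPP3 and 2.32 in MPP4 cells, which is another scale. The EBF1 consensus was present in 11.1% of MPP3 and 5.26% of MPP4 peaks when a further A was required at its end, and the PU.1 core in 11.1% and 21.1% when GAGGAAGT was required, since longer motifs match less often. The share of MPP3 peaks with the EBF1 consensus was 27.8% within 150 bp of the peak center. In MPP4 cells the number of genes with a start peak was 7 within 2.5 kb and 4 with starts of protein-coding transcripts only, beside 5. No paired analysis was possible because the tables hold no value per library, and leaving out each replicate was not run for the same reason. With 18 and 19 peaks, the intervals of the shares are wide.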
